A study of Danio rerio with 7 samples.

Results

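Solute carriers are one of the largest superfamilies of membrane transporters in vertebrates. Their proteins move sugars, amino acids, nucleotides, metals, inorganic ions, vitamins and drugs across the plasma membrane or the membranes of organelles, either down a gradient or coupled to the flow of sodium, protons or a second solute. Families are numbered by sequence similarity, so that one family tends to share a class of substrate, and many members are typical of one tissue, such as gut, liver, kidney, muscle or brain. Many zebrafish members exist as a and b copies from the genome duplication at the base of the teleost fishes.

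The expression of these genes was examined in 7 adult zebrafish. A gene was taken as a solute carrier when a non-control probe carried a RefSeq accession of a zebrafish gene whose current symbol starts with slc and a number. The array held 366 such probes for 252 genes. For each gene the probe with the highest mean fish signal (Cy5) was taken, and the gene was kept when Cy5 at that probe exceeded background by the scanner's criterion on 3 or more of the 7 arrays. This left 182 genes, of 8829 named genes that passed the same filter. Of the 70 genes that were not kept, 24 were above background on no array. Among the 182 genes, 84 were above background on all 7 arrays. Substrate classes below were set by family number alone, so a class can hold members whose own substrate is different or not known. The kept genes include slc7a6os and slc34a2aas, which are named for lying opposite a carrier gene and are not carriers themselves. Strand is not known to be separated by this labelling.

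The fish were full siblings of a hybrid strain, given in the labels as AB x unknown, and whole adults were homogenised for total RNA. The females were fish 4, 7, 8 and 9 and the males were fish 5, 8 and 9, each a separate animal on 1 Agilent array. The RNA of the fish carried Cy5, and a common reference RNA of the same hybrid strain carried Cy3. Age and treatment are not given in the labels, and which fish made up the reference is not given either. Values below are log2 ratios of fish over reference, so 0 means the level of the reference. Differences are female minus male, with SE from limma, and a gene passed at an adjusted p under 0.05 over all 22705 tested probes.

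The labels of sex were set against tissue markers first. The median log2 ratio of 14 egg coat and oocyte genes was between -0.63 and 0.37 in the females, -5.17 in male 8 and -4.14 in male 9. It was 0.46 in the fish labelled male 5, which goes against its label. The median of 9 testis genes was between 0.07 and 0.49 in the females, 2.13 in male 8 and 2.22 in male 9, and was 0.12 in the fish labelled male 5. Results are therefore given with all 7 fish and without male 5. Per the file headers the arrays fall in 3 scan sessions, with females 7 and 9 and male 9 in session 1, male 8 alone in session 2, and females 4 and 8 and male 5 in session 3. Slide below means the first part of the array barcode in the headers, which all arrays but that of male 8 share. Whether it marks a physical slide is not given, and a block by it equals leaving out male 8. The Cy3 reference channel correlated at 0.9955 to 0.9984 between arrays within session 1, but at 0.8843 to 0.8962 between sessions 1 and 3. Between 29.7% and 33.7% of probes were well above background in session 3, against 45.7% to 65.2% in session 1 and 47.2% in session 2. The SD between repeat spots of one probe had a median of 0.07 to 0.14 per array. The small number of arrays limits the precision of every value below.

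With all 7 fish, 0 of the 182 genes passed by limma, as did 0% of all named genes. The smallest adjusted p was 0.539. At an unadjusted p under 0.05 there were 7 genes (3.85%), against 836 of 8829 named genes (9.47%). With limma's array weights 15 genes passed, and the share of all named genes in that fit is not given here. Without male 5, 42 genes passed. Of these, 21 (11.5%) were higher in the females, against 19% of all named genes, and 21 (11.5%) were higher in males 8 and 9, against 11.7% of all named genes. The share higher in males 8 and 9 was thus near the background, and the share higher in females was below it. The 21 genes higher in females include slc7a6os, which is not a carrier itself (difference 0.96, adjusted p = 0.0102, with another probe at 0.60, adjusted p = 0.078). Of the 21 genes, 5 were above background in neither male 8 nor male 9. Among genes above background in a female and in male 8 or 9, 16 of 159 solute carriers (10.1%) were higher in the females, against 18.3% of 8227 named genes. The median difference was -0.05 over the 182 genes and 0.06 over all named genes. Among genes above background on all 7 arrays it was -0.22 for 84 solute carriers and 0.29 for 5297 named genes. The counts depended on single fish. Without male 8 there were 8 genes higher in females and 12 higher in male 9. The counts of all named genes without male 8 are not given here. With the arrays centred on their median in place of loess, 2 genes were higher in females and 0 in males 8 and 9. Of all 8829 named genes, 375 and 15 were, and their median moved from 0.06 to 0.61.

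In all 42 genes that passed, the 4 females lay on one side of males 8 and 9 without overlap, as they did in 99.9% of the 2712 named genes that passed. Over the 21 genes higher in males 8 and 9, the median log2 ratio was 0.83, 0.86, 0.44 and 0.91 in females 4, 7, 8 and 9, 0.23 in male 5, and 3.09 and 2.97 in males 8 and 9. Over the 21 genes higher in females it was -0.18, -0.12, -0.02 and -0.07 in females 4, 7, 8 and 9, -0.02 in male 5, and -1.52 and -1.23 in males 8 and 9. Both sets were chosen by this contrast, so the values of the females and of males 8 and 9 describe the choice, while those of male 5 were not used in it. Male 5 was nearer to the female mean in 42 of the 42 genes, as it was in 99.2% of 2707 named genes that passed. It lay within the range of the females in 23 genes, between the sexes in 2, outside both in 17 and within the range of males 8 and 9 in 0. The share within the females was 54.8%, against 61.9% of the named genes that passed. Male 5 had been set aside because its markers were at female levels, and it shares session 3 with females 4 and 8 but with neither male 8 nor male 9. Over 9489 bright probes its log2 ratios correlated at 0.807 and 0.875 with females 4 and 8. The correlation was 0.467 and 0.493 with females 7 and 9, and 0.407 and 0.317 with males 8 and 9. The part of session in these values was not tested.

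**Figure D1:**
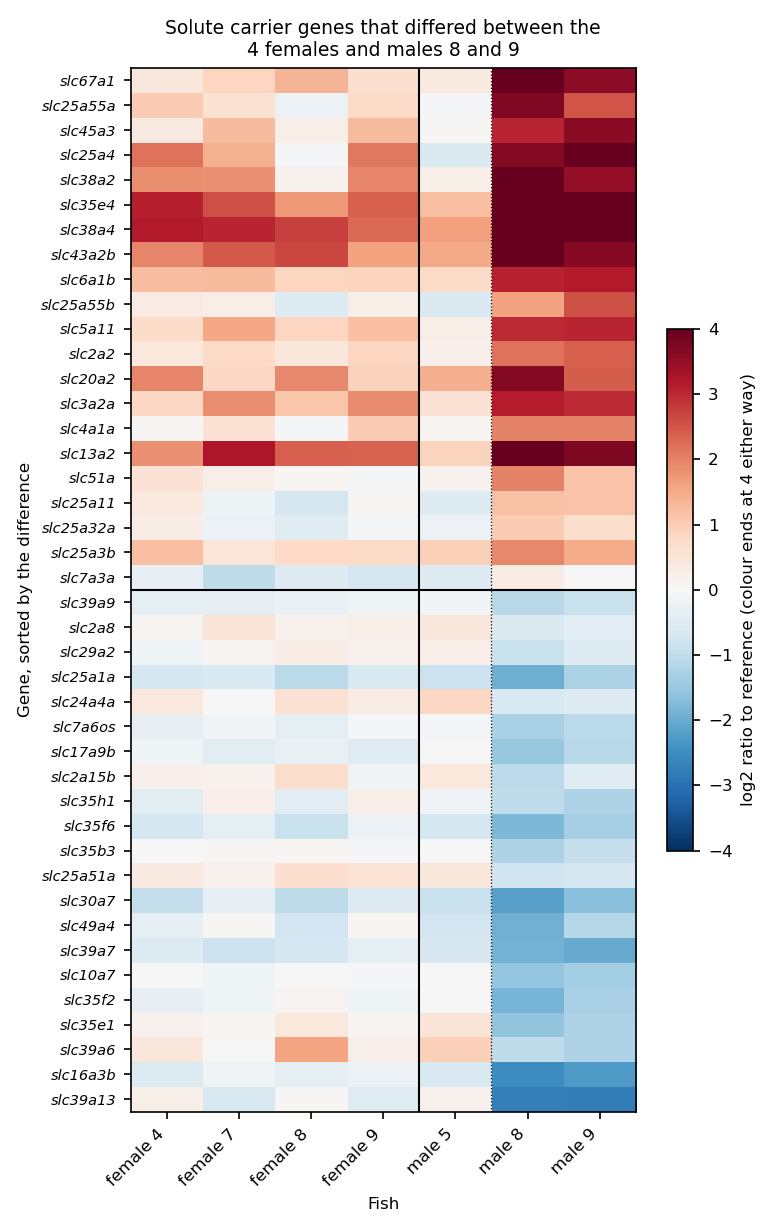
Log2 ratio to the reference of the 42 solute carrier genes that passed, by fish, sorted by the difference between the 4 females and males 8 and 9; red is above the reference and blue below, and colours end at 4 in either direction. The column of male 5 resembles the female columns, and males 8 and 9 stand apart in both blocks.

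Scan session was not balanced over sex. With session as a block the test rests on females 7 and 9 against male 9. The females were then higher in 14 genes and the male in 18, 24 of them the same genes with the same sign as without the block, so that 18 of the 42 genes did not pass with the block. Within session 1 alone 18 genes were higher in females and 28 in male 9. Within session 3, where male 5 is the only male, 0 genes passed and 4 had an unadjusted p under 0.05. In both within-session tests the lone male was assumed to vary like the females. The shares of all named genes with these settings are not given here, so the counts do not set solute carriers apart from other genes.

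Markers of several tissues moved with these differences. In whole-animal RNA, fewer cells of a type and less RNA per cell cannot be told apart. Without male 5, the females were higher in all 14 genes of egg coat and oocyte, with a median difference of 4.77. Of 9 testis genes, 8 were higher in males 8 and 9. Male 5 was set aside because of these same lists, so their counts partly describe that choice. With all 7 fish the median difference of both lists was smaller in size, and 0 of all tested probes passed by limma. Of the genes typical of other tissues, 3 of 10 liver, 5 of 7 intestine, 5 of 10 muscle, 4 of 7 nerve, 2 of 5 red blood cell and 1 of 7 retina genes were higher in males 8 and 9, and 0 genes of these 6 lists in the females. Over all named genes, 11.7% were higher in males 8 and 9 and 19% in the females. Of 2 kidney tubule genes 1 was higher in the females, with a median difference of 1.01, and of 2 skin ionocyte genes 0 passed by limma. The median of the muscle list was 0.33 to 2.42 in the females, 4.12 in male 8 and 3.66 in male 9, and was -0.23 in male 5. For the liver list it was 0.57 to 2.47 in the females, 4.03 in male 8, 3.06 in male 9 and 0.59 in male 5, and for the intestine list 0.38 to 2.06, 3.63, 2.66 and 0.20. The markers insl3 of testis, cdx1b of intestine and elavl3, stmn2a and sypa of nerve did not reach the filter. The part of tissue content in the differences of the solute carriers was not tested.

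Among the metal transporters, 5 of 16 genes were higher in females, against 19% of all named genes, and 0 in males 8 and 9. The count in females was 2 without male 8 or with slide as a block, 3 with session as a block and 1 with median centring, and without male 9 it was 4, with 1 gene higher in male 8. All 5 carry or are related to carriers of zinc, in the Slc39 family, which moves zinc into the cytosol, and the Slc30 family, which moves it out or into organelles. In the Slc39 family 4 of 6 genes were higher in females, and in the Slc30 family 1 of 7. The median difference of the class was 0.14, beside 0.06 over all named genes. It was 1.12 with median centring, 0.44 with the scanner's processed signals and 0.36 with Cy5 alone, where all named genes were at 0.61, 0.27 and 0.15. For slc39a13, a zinc transporter of intracellular vesicles, the log2 ratio was 0.22, -0.60, 0.05 and -0.50 in females 4, 7, 8 and 9, 0.16 in male 5, -2.75 in male 8 and -2.77 in male 9. Males 8 and 9 were far below all other fish. The difference was 2.55 ± 0.27 (SE, 4 females and 2 males, adjusted p = 0.00237), or 5.85-fold, and it also passed with median centring. For slc39a7, which releases zinc from the endoplasmic reticulum, the values were -0.55, -0.85, -0.71 and -0.39 in the females, -0.63 in male 5, -1.88 in male 8 and -2.01 in male 9. Male 5 lay within the females. The difference was 1.32 ± 0.18 (SE, adjusted p = 0.00432), and a second probe of the gene gave 0.55 with an adjusted p of 0.172.

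For slc39a6, a plasma membrane zinc importer, the values were 0.45, 0.02, 1.57 and 0.20 in the females, 0.94 in male 5, -1.03 in male 8 and -1.23 in male 9. Female 8 had the highest ratio, and the groups did not overlap (difference 1.69 ± 0.43, SE, adjusted p = 0.0326). The normalized log2 Cy5 signal of slc39a6 was 8.52, 9.53, 9.53 and 9.75 in females 4, 7, 8 and 9, so female 8 was not highest there. It was 7.21 in male 8 and 8.33 in male 9. The Cy3 reference signal was 7.97 to 8.24 in session 3 and male 8, but 9.5 to 9.56 in session 1. For slc30a7, which loads zinc into the Golgi apparatus, the values were -0.95, -0.39, -1.03 and -0.51 in the females, -0.88 in male 5, -2.18 in male 8 and -1.68 in male 9 (difference 1.21 ± 0.26, SE, adjusted p = 0.0182). Without male 8, the adjusted p was 0.11 for slc39a6 and 0.101 for slc30a7. Without female 4 it was 0.0649 for slc39a6, and without male 9 it was 0.131. With session as a block slc39a6 had an adjusted p of 0.125. The fifth gene, slc39a9, differed by 0.70 ± 0.15 (SE, adjusted p = 0.0207, and 0.0896 with session as a block). Of the metal transporters that did not pass, the copper importer slc31a1 differed by -0.49 (adjusted p = 0.29), the iron exporter slc40a1 by -0.85 (adjusted p = 0.34) and slc11a2, which imports ferrous iron, by 0.19 (adjusted p = 0.586).

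The class of nucleoside and nucleotide sugar carriers, set by family, supplied 6 of the 21 genes higher in females. It held 15 genes, with 1 gene higher in males 8 and 9. Over all named genes, 19% were higher in females and 11.7% in males 8 and 9. Among the 6 genes, slc35f2 and slc29a2 were above background in neither male 8 nor male 9, so the filter favoured a lower level there. Of the 10 genes above background in a female and in male 8 or 9, 4 were higher in females, against 18.3% of 8227 named genes. The count of 6 was 3 without male 8, without female 7, without female 9 or with slide as a block, and 1 with median centring. The class holds the Slc29 nucleoside transporters and the Slc35 family. Better-known Slc35 members bring activated sugars or sulfate donors into the Golgi apparatus and the endoplasmic reticulum, and this was not shown here for each gene that passed. The median difference of the class was 0.45. It was 0.61 with median centring, as over all named genes, 2.08 with processed signals and 0.52 with Cy5 alone. For slc35e1, a family member of little-known substrate, the values were 0.18, 0.10, 0.43 and 0.11 in the females, 0.51 in male 5, -1.57 in male 8 and -1.23 in male 9. Male 5 was above the highest female. The difference was 1.60 ± 0.18 (SE, adjusted p = 0.0026), or 3.04-fold, and it also passed with median centring. For slc35b3, which carries the sulfate donor PAPS into the Golgi apparatus, the values were 0.02, 0.05, 0.07 and -0.04 in the females, -0.02 in male 5, and -1.24 and -0.93 in males 8 and 9. The females spanned a narrow range, and the difference was 1.11 ± 0.15 (SE, adjusted p = 0.00463). A second probe of slc35b3 differed by 0.07 (adjusted p = 0.812).

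In 5 of the genes higher in females the signal was not well above background in males 8 and 9, so the size of the difference is uncertain there. These genes could enter the filter only through the females and male 5, so the filter favoured a lower level in males 8 and 9. The fold of the Cy5 signal sets the mean normalized signal of the females against that of males 8 and 9. A male's signal counts as no lower than the dimmest probe above background on its array. This left the folds below at the measured values, so they are estimates near background and not bounds. For slc35f2, the log2 ratios were -0.34, -0.16, 0.10 and -0.16 in the females, -0.02 in male 5, and -1.86 and -1.30 in males 8 and 9. Its log2 Cy5 signal averaged 8.23 in the females and 6.79 in males 8 and 9, or 2.70-fold (adjusted p of the ratio 0.00564). For the intracellular glucose transporter slc2a8 the averages were 6.62 and 5.96, or 1.58-fold (adjusted p of the ratio 0.0202). In the other 3 genes the fold of the Cy5 signal exceeded that of the ratio to the reference, and it is not given. The log2 ratio differed by 0.81 ± 0.20 (SE, adjusted p = 0.0274) for the equilibrative nucleoside transporter slc29a2. It differed by 1.17 ± 0.18 (SE, adjusted p = 0.00689) for slc25a51a, which brings NAD into mitochondria, and by 0.97 ± 0.19 (SE, adjusted p = 0.013) for the vesicular nucleotide transporter slc17a9b. With session as a block the adjusted p of these 3 genes was 0.14, 0.0517 and 0.0615. The remaining genes of the nucleotide sugar class that were higher in females were slc35f6 and slc35h1, both with a difference of 1.03 and adjusted p of 0.0261 and 0.0307. The exception was slc35e4, whose values were 3.10, 2.58, 1.74 and 2.40 in the females, 1.20 in male 5, 4.53 in male 8 and 4.93 in male 9. It was above the reference in all 7 fish and differed by -2.27 ± 0.37 (SE, adjusted p = 0.0075).

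Single genes of other classes were also higher in females. The monocarboxylate transporter gene slc16a3b encodes a carrier that exports lactate from glycolytic cells. Its values were -0.55, -0.17, -0.37 and -0.23 in the females, -0.62 in male 5, and -2.53 and -2.28 in males 8 and 9. The difference was 2.07 ± 0.17 (SE, adjusted p = 0.00155), or 4.20-fold, and a second probe gave 2.13 with an adjusted p of 0.00155. The other 5 monocarboxylate transporters did not pass and ranged from -1.31 for slc16a10 (adjusted p = 0.0727) to -0.06 for slc16a9b. For slc10a7, a relative of the bile acid carriers, the values were 0.03, -0.18, -0.02 and -0.06 in the females, -0.03 in male 5, -1.56 in male 8 and -1.35 in male 9. Males 8 and 9 lay more than 1 log2 unit below every other fish, and the difference was 1.40 ± 0.15 (SE, adjusted p = 0.00241). For slc49a4, a lysosomal membrane transporter, the values were -0.36, 0.04, -0.77 and 0.07 in the females, -0.77 in male 5, -1.92 in male 8 and -1.15 in male 9 (difference 1.28 ± 0.32, SE, adjusted p = 0.032). Its adjusted p was 0.167 without male 8 and 0.0632, 0.0702 and 0.0698 without female 4, 7 and 9. For slc24a4a, a potassium-dependent exchanger of sodium for calcium, the values were 0.41, -0.01, 0.61 and 0.29 in the females, 0.83 in male 5, and -0.60 and -0.52 in males 8 and 9. The difference was 0.89 ± 0.20 (SE, adjusted p = 0.0226), and the adjusted p was 0.0978 without male 8, 0.0713 without male 9, 0.058 without female 4, 0.0522 without female 9 and 0.102 with session as a block.

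Of the amino acid transporters, 5 of 23 genes were higher in males 8 and 9, against 11.7% of all named genes, and 0 in the females. The count in males was 1 without male 8 or with slide as a block, 4 with session as a block and 0 with median centring, and without male 9 it was 2, with 1 gene higher in the females. The class median was -0.21. It was -0.03 with median centring, -1.36 with processed signals and -0.31 with Cy5 alone. For slc38a4, a sodium-coupled neutral amino acid transporter typical of liver in mammals, the values were 3.18, 3.06, 2.72 and 2.25 in the females, 1.65 in male 5, 5.14 in male 8 and 4.81 in male 9. All fish were above the reference, and male 5 was lowest. The difference was -2.17 ± 0.29 (SE, adjusted p = 0.00412). A second probe gave -3.29 (adjusted p = 0.0105) and another, dimmer probe -0.28 (adjusted p = 0.36). For slc38a2, a widely expressed transporter of the same family, the values were 1.86, 1.82, 0.16 and 1.94 in the females, 0.24 in male 5, 4.04 in male 8 and 3.52 in male 9. Female 8 lay near male 5 and far below the other females (difference -2.33 ± 0.54, SE, adjusted p = 0.0233), and a second probe differed by -0.06 (adjusted p = 0.784). For slc43a2b, which carries branched-chain amino acids, the values were 1.94, 2.44, 2.68 and 1.61 in the females, 1.52 in male 5, 4.93 in male 8 and 3.63 in male 9 (difference -2.11 ± 0.44, SE, adjusted p = 0.0171). Without male 8 the adjusted p was 0.123 for slc38a2 and 0.083 for slc43a2b, and with session as a block it was 0.176 and 0.0824. Without male 9 the adjusted p of slc38a2 was 0.0668. The heavy chain gene slc3a2a, whose protein anchors several amino acid exchangers in the membrane, differed by -1.64 ± 0.34 (SE, adjusted p = 0.0168), and the cationic amino acid transporter gene slc7a3a by -0.78 ± 0.23 (SE, adjusted p = 0.0499, and 0.0594 with session as a block).

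**Figure D2:**
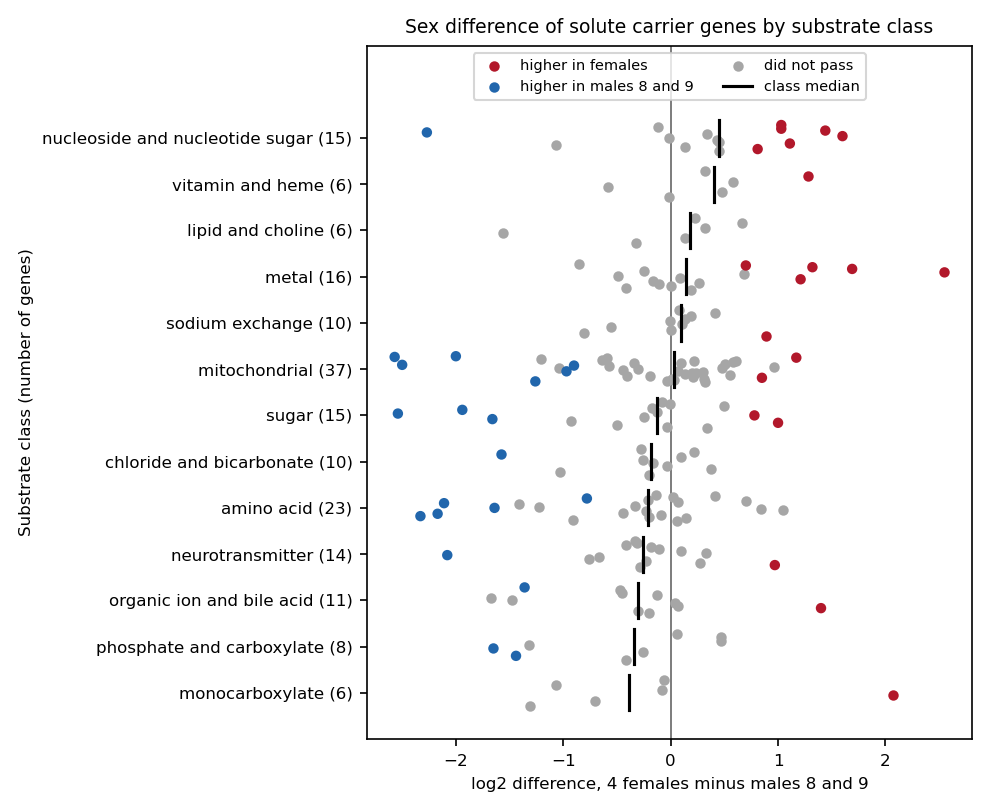
Log2 difference (4 females minus males 8 and 9) of each solute carrier gene, by substrate class for classes of 5 or more genes; each point is a gene, coloured where it passed, and the black bar is the class median. Of the metal carriers 5 of 16, and of the nucleoside and nucleotide sugar carriers 6 of 15, were higher in females, against 19% of all named genes. Of the amino acid carriers 5 of 23 were higher in males 8 and 9, against 11.7% of all named genes, and none in females.

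Of the sugar carriers, 2 of 15 genes were higher in females and 3 in males 8 and 9, against 19% and 11.7% of all named genes. For slc2a2, the glucose transporter of liver and intestine, the values were 0.41, 0.79, 0.44 and 0.86 in the females, 0.21 in male 5, 2.17 in male 8 and 2.40 in male 9. Male 5 was below the lowest female. The difference was -1.66 ± 0.20 (SE, adjusted p = 0.00308), whereas a second, dimmer probe differed by 0.06 (adjusted p = 0.819). For slc45a3, a proton-coupled sugar transporter, the values were 0.37, 1.27, 0.26 and 1.27 in the females, 0.04 in male 5, 3.06 in male 8 and 3.60 in male 9 (difference -2.54 ± 0.37, SE, adjusted p = 0.00552). Females 7 and 9 of session 1 were the higher pair of females. The sodium-coupled inositol transporter gene slc5a11 differed by -1.94 ± 0.25 (SE, adjusted p = 0.00374), and a second probe by -0.33 (adjusted p = 0.425). In the opposite direction, slc2a15b, which acts in pigment cells of fish, was at 0.20, 0.17, 0.71 and -0.10 in the females, 0.42 in male 5, -1.04 in male 8 and -0.47 in male 9. It differed by 1.00 ± 0.27 (SE, adjusted p = 0.0412), and a second probe by 1.96 (adjusted p = 0.0151). With session as a block slc2a15b differed by 0.50 (adjusted p = 0.282). Its copy slc2a15a differed by -0.50 (adjusted p = 0.182).

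**Figure D3:**
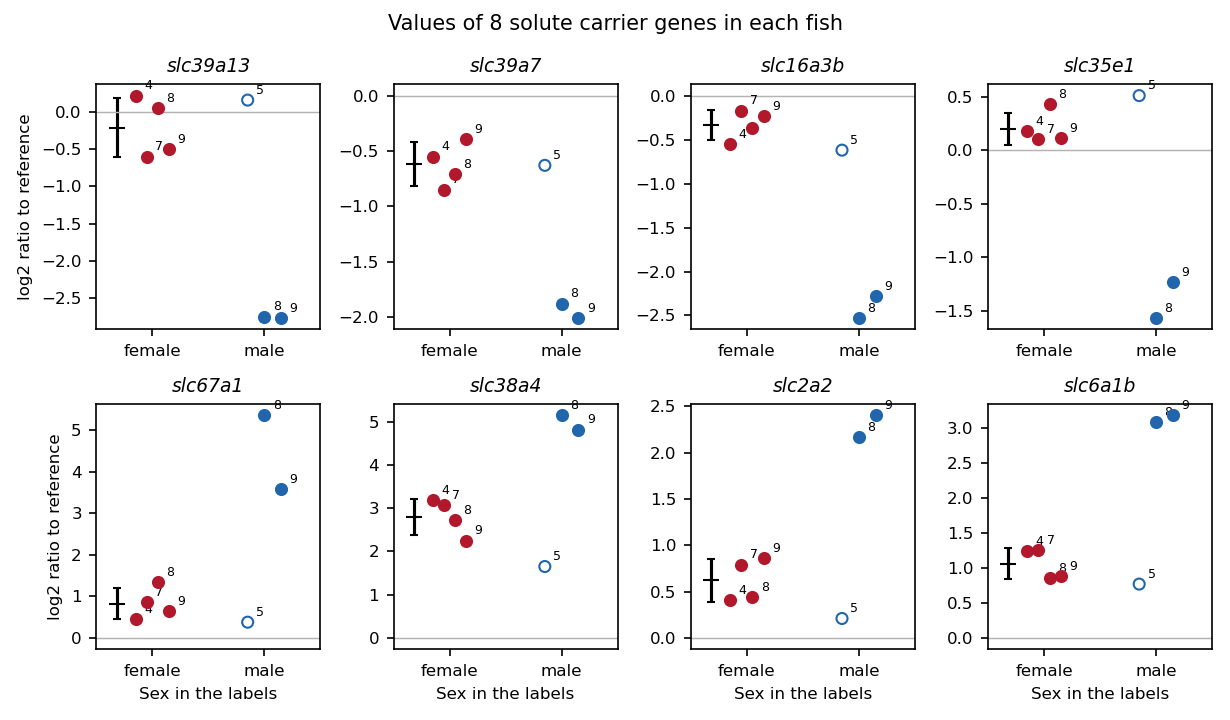
Log2 ratio to the reference in each fish for 8 solute carrier genes, with fish numbers beside the points, females in red, males in blue and male 5 as an open circle; the black bar is the female mean with its SD (n = 4). Males 8 and 9 lie below the females in the upper row and above them in the lower row, and male 5 lies among the females or beyond them on the side away from males 8 and 9, except in slc16a3b, where it is just below the lowest female.

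The mitochondrial carriers (Slc25), the largest family here, held 37 genes and had a median difference of 0.03. Females were higher in 2 of them and males 8 and 9 in 6, against 19% and 11.7% of all named genes. These carriers exchange nucleotides, phosphate and metabolites across the inner mitochondrial membrane. For slc25a4, the ADP/ATP carrier typical of heart and skeletal muscle in mammals, the values were 2.16, 1.43, -0.04 and 2.11 in the females, -0.57 in male 5, 3.67 in male 8 and 4.16 in male 9. Female 8 and male 5 were the lowest fish, as they were in the muscle list. The difference was -2.50 ± 0.63 (SE, adjusted p = 0.0308), and the adjusted p was 0.0965 without male 8, 0.135 without male 9, 0.0651 without female 7 and 0.149 with session as a block. The second ADP/ATP carrier, slc25a5, was saturated on 1 array and differed by -0.59 (adjusted p = 0.44). The phosphate carrier gene slc25a3b differed by -0.90 ± 0.24 (SE, adjusted p = 0.037), and the oxoglutarate carrier gene slc25a11 by -1.26 ± 0.30 (SE, adjusted p = 0.0249). Other probes of slc25a3b differed by -0.96 (adjusted p = 0.0325) and -0.05 (adjusted p = 0.845), and another probe of slc25a11 by -0.55 (adjusted p = 0.0476). The citrate carrier gene slc25a1a differed by 0.85 ± 0.25 (SE, adjusted p = 0.0491). With session as a block the adjusted p was 0.0816 for slc25a3b, 0.145 for slc25a11 and 0.108 for slc25a1a. The counts rest on the chosen probes. The chosen probe of slc25a28 differed by 0.30 (adjusted p = 0.279), but another probe by -1.12 (adjusted p = 0.00693). For slc25a39 the chosen probe differed by 0.96 (adjusted p = 0.0635) and another by 0.85 (adjusted p = 0.0301).

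Copies of one gene could be compared where both copies were kept. Of 11 pairs whose symbols differ only in a final a or b, 8 had the same sign, and in 1 pair, slc25a55a and slc25a55b, both copies passed. For slc25a55a the values were 1.00, 0.61, -0.25 and 0.78 in the females, -0.06 in male 5, 3.71 in male 8 and 2.52 in male 9. For slc25a55b they were 0.33, 0.26, -0.52 and 0.23 in the females, -0.57 in male 5, 1.61 in male 8 and 2.54 in male 9. In both copies female 8 was the lowest female. The differences were -2.57 ± 0.45 (SE, adjusted p = 0.00951) and -2.0 ± 0.35 (SE, adjusted p = 0.0094). Without male 8 the adjusted p of slc25a55a was 0.0531, and with session as a block it was 0.0796. Its other probes differed by -0.95 (adjusted p = 0.0328) and -0.15 (adjusted p = 0.477). In the pair of GABA transporters, slc6a1b differed and slc6a1a did not pass (-0.67, adjusted p = 0.155). The values of slc6a1b, which clears the inhibitory transmitter GABA from synapses, were 1.24, 1.26, 0.86 and 0.88 in the females, 0.77 in male 5, 3.09 in male 8 and 3.18 in male 9 (difference -2.08 ± 0.18, SE, adjusted p = 0.00168). Probes of near-identical copies may share signal.

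The gene with the largest difference was slc67a1, which carried the older symbol slc22a18. Its values were 0.45, 0.86, 1.35 and 0.65 in the females, 0.38 in male 5, 5.36 in male 8 and 3.58 in male 9. Male 8 was the highest fish by a wide margin. The difference was -3.64 ± 0.50 (SE, adjusted p = 0.00456), or 12.5-fold, and a second, dimmer probe differed by -0.52 (adjusted p = 0.185). For slc4a1a, the anion exchanger of red blood cells, the values were 0.04, 0.59, -0.08 and 1.03 in the females, 0.07 in male 5, 1.98 in male 8 and 1.97 in male 9. It was above background on 4 arrays only and differed by -1.58 ± 0.33 (SE, adjusted p = 0.0169). The adjusted p was 0.0791 without male 8 and 0.0702 without male 9, and the other probes differed by -0.40 and 0.03 (adjusted p = 0.34 and 0.907). The median of the red blood cell list was 0.25 to 1.11 in the females, 2.2 in male 8 and 1.95 in male 9. For slc20a2, a sodium-coupled phosphate importer, the values were 1.94, 0.84, 1.91 and 0.91 in the females, 1.46 in male 5, and 3.67 and 2.42 in males 8 and 9. The difference was -1.65 ± 0.48 (SE, adjusted p = 0.0496). The normalized log2 Cy5 signal of slc20a2 was 8.73 to 8.99 in the females, 8.43 in male 5, 10.27 in male 8 and 10.68 in male 9. Its Cy3 reference signal was 8.07 to 8.26 in session 1 and 6.6 to 6.97 on the other arrays. The adjusted p of slc20a2 was above 0.05 without any 1 of the fish other than male 9, between 0.0531 without female 8 and 0.256 without male 8. The dicarboxylate transporter gene slc13a2, typical of kidney and intestine in mammals, differed by -1.44 ± 0.37 (SE, adjusted p = 0.0336), and slc51a, a subunit of the basolateral bile acid exporter, by -1.36 ± 0.29 (SE, adjusted p = 0.0181). With session as a block the adjusted p was 0.215 for slc13a2 and 0.0647 for slc51a.

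Other classes had few or no genes that passed. Among 6 lipid and choline carriers 0 passed by limma. One of them, slc27a2a, which activates and takes up long fatty acids, was at 0.88, 1.90, 1.59 and 1.72 in the females, 1.27 in male 5, 3.86 in male 8 and 2.3 in male 9 (difference -1.56 ± 0.48, SE, adjusted p = 0.0555). Its adjusted p was 0.0198 without male 9, with a difference of -2.34. Of 10 chloride and bicarbonate carriers slc4a1a was the only gene whose chosen probe passed. The chosen probe of slc12a2 differed by -1.03 (adjusted p = 0.141), but its second probe by -1.52 (adjusted p = 0.00437). Of 14 neurotransmitter carriers slc17a9b and slc6a1b passed. Of 10 sodium exchangers, slc24a4a passed, and 0 of the 5 Slc9 sodium-proton exchangers did. Outside the solute carriers, 1 of 9 genes of the ABC family was higher in females, and 2 in males 8 and 9. The ABC list was taken by symbol, and abce1, abcf1 and abcf2a in it do not encode membrane transporters. The gene higher in females was abce1 (difference 0.47, adjusted p = 0.0493), so no ABC transporter passed in that direction. The counts were 0 and 1 of 10 for aquaporins, 2 and 3 of 13 for sodium-potassium ATPase genes, 1 and 1 of 13 for proton ATPase genes, and 0 and 0 of 3 for the slco organic anion transporters. Over all named genes the shares were 19% and 11.7%.

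When all 3 fish labelled male were kept, the females lay on one side of the males in 5 of the 182 genes (2.75%), against 3.73% of 8816 named genes. The genes were slc16a3b and slc49a4, higher in the females, and slc22a7b.1, slc2a3a and slc25a43, higher in the males. The gap between the nearest female and male was at most 0.07 on the log2 scale, in slc16a3b and in the organic anion transporter gene slc22a7b.1. It was 0.02 for the glucose transporter gene slc2a3a, 0.01 for slc25a43 and 0 after rounding for slc49a4. The 3 genes higher in the males were each above background on 4 arrays only, in 2 of the females and not in male 5. With 7 fish the adjusted p of the 5 genes was 0.539, apart from slc2a3a at 0.587.

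Spread among the siblings was taken as an SD of log2 ratios, pooled over the sexes after removing each sex's mean, for genes above background on all 7 arrays and saturated on none. Its median was 0.51 over 83 solute carriers, with a range of 0.12 to 2.01, and 0.48 over 5226 named genes. Without male 5 the median of the solute carriers was 0.36. The 6 genes with the widest spread were slc25a36a (2.01), slc25a4 (1.83), slc67a1 (1.62), slc38a2 (1.46), slc35e4 (1.37) and slc25a55a (1.29). Of these, 5 passed the test without male 5, and their spread with male 5 among the males includes that difference.

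The gene slc25a36a, a carrier of pyrimidine nucleotides, spread with scan session and did not pass for sex. Its log2 ratio was -2.91 in female 4, -3.22 in female 8 and -3.06 in male 5 (session 3), -0.04 in female 7, 0.74 in female 9 and 0.95 in male 9 (session 1), and -1.57 in male 8. The sessions did not overlap, and the difference between the sexes was -1.04 ± 1.33 (SE, adjusted p = 0.604). The normalized log2 signal of the fish channel was 8.39 to 9.18 in the females and 8.94 in male 5. It was 10.63 in male 8 and 9.58 in male 9, both above all females. The reference channel was at 12.04, 12.03 and 12.00 in females 4 and 8 and male 5 and 12.21 in male 8, but at 8.43, 8.44 and 8.63 in females 7 and 9 and male 9. The split of this probe between sessions was thus measured in the reference and not in the fish. A second probe of the gene was at 0.17, 0.72, 0.58 and 1.08 in females 4, 7, 8 and 9, 0.32 in male 5, 2.96 in male 8 and 1.58 in male 9, and differed by -1.63 (adjusted p = 0.0333).

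Over the 83 bright solute carriers, sessions 1 and 3 did not overlap in 31 genes (37.3%), with session 1 above in 19 and below in 12. This was near the 35.8% of 5222 bright named genes for which the same held. The reference signals of slc39a6 and slc20a2 are given above. Which further splits lie in the reference channel was not tested.

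**Figure D4:**
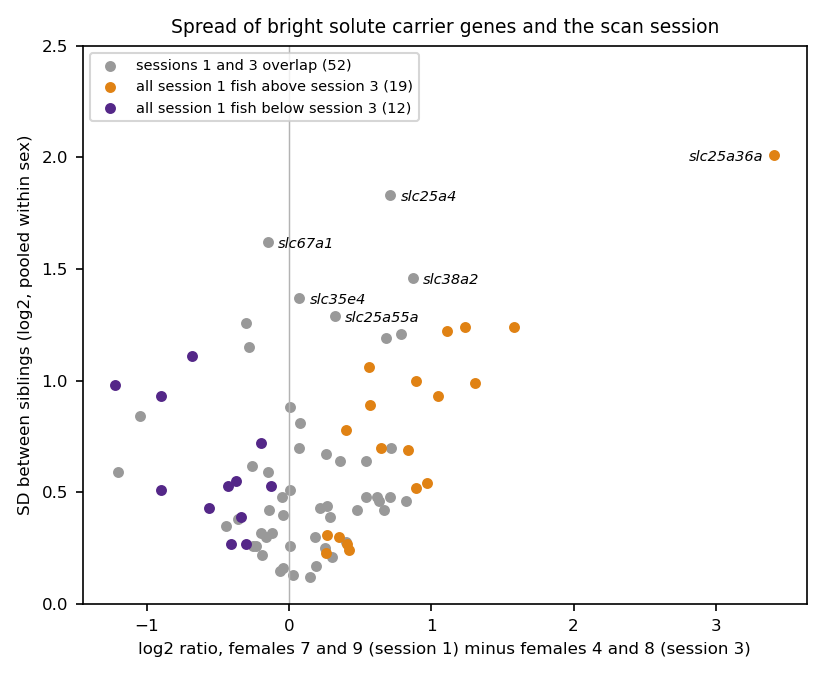
SD between siblings (log2, each sex about its own mean) against the mean difference of females 7 and 9 (session 1) from females 4 and 8 (session 3), for 83 solute carrier genes above background on all arrays; colours mark genes for which the 3 fish of session 1 lie all above (19 genes) or all below (12 genes) the 3 fish of session 3. slc25a36a stands alone at the far right with an SD of 2.01, and the other 5 named genes have wide spread without a split by session.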

How the data were processed

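Per the file headers, the authors extracted the arrays by Feature Extraction from Agilent, version 10.5.1.1 under protocol GE2_105_Jan09_2. The deposited scanner files hold spot intensity per channel on a linear scale. The deposited value table holds log10 ratios equal to the scanner software's at 100% of spots. Its scale and direction are thereby known, and any further centring by the authors is unknown. The labels give total RNA, while their labelling protocol describes DNA, so how RNA was labelled is not given in the sources used here.

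Median signals were corrected with normexp (offset 50) and loess in limma 3.58.1 (R 4.3.3). The 1417 control spots and 98 outlier spots were left out, and saturated spots kept. Of 43603 probes, 22705 were well above background in Cy5 on at least 3 arrays and were tested with lmFit and eBayes, two-sided, with Benjamini-Hochberg adjustment over all of them. Names came from RefSeq accessions, compared without versions, in a table of the GRCz12tu assembly (16568 probes, 38%, and 11484 genes). The array was designed on danRer6, so no coordinates are given, and no sequences were used. The sex fit was run on simulated ratios with known changes and independent noise set by the spread of the females. The simulation held no scan sessions, no shift of the reference and no fish that goes against its label, so it does not cover these.

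Members, substrate classes and tissue lists were chosen with earlier results of these data known. Named genes are the 10 largest differences per direction, the 6 widest spreads, the leading gene of each class and genes separating all fish by labelled sex. Further members were named after their values were seen, to cover each class. Alternatives were other background, normalization, filter, block and probe choices and each fish left out. The Cy5-alone, within-session and male 5 settings were added after seeing the data.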

Additional observations from a re-analysis of the deposited data

Results flagged for a closer look

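In 2 of the 28 named genes tested this way, a single female stood far from the other 3, with a gap to the nearest fish that took up more of the group's range than Dixon's critical value for 4 samples allows. Chance alone gives about 1 in 20 such groups. For slc38a2 female 8 was at a log2 ratio of 0.16, and the gap was 0.933 of the range. For slc25a55b female 8 was at -0.52, and the gap was 0.882 of the range. This gene was above background in 3 of the 4 females. Its log2 Cy5 signal was 6.51 in female 8, against 7.28 to 7.35 in the other females, so this value lies near background. In female 8 the median of the muscle list was 0.33, the lowest of the females, and its part in both values was not tested.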

How the results depend on the processing

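With 7 fish, 0 genes passed under the alternatives run, except 15 with array weights, 35 with the replicate block and 46 within session 1, and 0 to 42 when 1 fish was left out (42 without male 5). Against 21 higher in females without male 5, the count was 2 with median centring, 43 with processed signals, 43 with the deposited table, 8 with slide as a block (male 8 sits alone on its slide), 13 with the replicate block, 47 with Cy5 alone, 0 with male 5, and 8 to 20 with 1 fish left out. Against 21 higher in males 8 and 9 it was 0, 42, 41, 12, 22, 52, 0, and 12 to 18 in turn. Of all 8829 named genes, 1676 were higher in females and 1036 in males 8 and 9 in the main fit without male 5. These counts were 375 and 15 with median centring, 2645 and 1433 with processed signals, 2643 and 1447 with the table, and 3114 and 1870 with Cy5 alone. The median difference with 7 fish (-0.02) was 0.24 with median centring, -0.21 with processed signals and with the table, -0.10 over genes bright on all arrays, -0.11 with the replicate block, -0.08 with Cy5 alone and 0.03 within session 3, and -0.05 to 0.03 with 1 fish left out. Without male 5 (-0.05) it was 0.15, -0.42, -0.46, -0.22, -0.11 and -0.14 under the first 6 of these, -0.10 without background correction and 0.02 without the filter. The spread (0.51) was 0.81 with median centring and 0.88 with processed signals and with the table. Of the 23 named genes that passed, 21 did not pass with median centring, 7 with session as a block, 10 with slide as a block and 23 with male 5 kept. The cause of these shifts was not tested. No named gene that passed changed sign. Fish numbers 8 and 9 occur in both sexes, and whether a shared number pairs fish is not settled here. Deviations of same-numbered fish correlated at -0.16 for number 8 and 0.48 for number 9, against -0.67 and 0.04 for crossed numbers. Female 9 and male 9 also share session 1. The replicate block rests on fish 8 and 9 of both sexes alone. With it 13 of the 42 genes that passed without male 5 did not pass. Among the genes named by the rule it moved the calls for slc4a1a (adjusted p = 0.0534) and slc24a4a (adjusted p = 0.057) above the threshold. Dim signal limits genes that were below background on some arrays.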
